A study of Mus musculus with 9 samples.

Results

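X-3 was compared directly with X-1, a pair of compounds that the series title describes as derivatives of mangiferin, a plant polyphenol. Both are known here only by their code names. The comparison used every array of the 2 treated groups, 3 of X-3 and 3 of X-1, which is 6 of the 9 arrays of the series. The other 3 arrays were untreated controls. All groups were 3T3-L1 cells, an established mouse fibroblast line that can be turned into adipocytes, kept here as undifferentiated preadipocytes. Before treatment the cells were grown with 10% fetal bovine serum and then went 48 h without serum. Each compound was given at 70 µM for 24 h, so dose and time were matched and 1 pair of compounds was compared. The labels give no vehicle for the controls, and 1 dose and 1 time do not show whether the compounds differ in potency or in timing. The design text counts 9 independent experiments, and the labels do not say how cultures were divided among them, so the spread between arrays may in part be technical.

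3T3-L1 preadipocytes are a standard model for compounds proposed to act on fat cells. Polyphenols and related compounds are known to touch several stress pathways in such cells. One is the NRF2 pathway, in which the transcription factor NRF2 escapes degradation after oxidation or electrophilic attack on KEAP1 and switches on genes for glutathione synthesis and detoxification. Another is the hypoxia pathway, in which prolyl hydroxylases need oxygen and iron to mark the HIF factors for destruction. Growth factor signalling through ERK raises immediate early genes and also the phosphatases that switch ERK off.

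Levels below are log2 signals relative to the 75th percentile of the same array, given in the order of replicates 1, 2 and 3, and a difference is X-3 minus X-1 on that scale with its standard error from limma. Called means an adjusted p under 0.05 (Benjamini-Hochberg over 16263 genes, limma fitted to all 9 arrays). A level of 1 probe cannot be set against that of another probe. RNA came from whole cultures, so fewer cells of a type and less RNA per cell cannot be told apart.

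The array of X-3 replicate 1 stood apart from the other 5 treated arrays. On the first principal component of the 6 arrays, which held 48.3% of their variance, it lay at 71.3 and the others between −17.8 and −9.20. The second component, with 31.7%, held the X-1 arrays between 18.4 and 27.1 and X-3 replicates 2 and 3 at −34.1 and −34.5, with X-3 replicate 1 at −1.65. Between X-3 replicates 2 and 3, 0.394% of genes differed over 2-fold, against 11.15% and 11.05% between replicate 1 and each of them. The share of probes well above background was 57.9% on X-3 replicate 1 and 67.1% and 65.3% on replicates 2 and 3. Its deviation was wider for dim genes: 18.8% of the 4066 dimmest genes lay over 2-fold from the mean of the other X-3 arrays, against 3.94% of the 4066 brightest. Replicate 1 of every group was on slide 1, which carried no spike-in signal and was read with an earlier version of the Feature Extraction software than slides 2 and 3. Each compound kept the same place on every slide, which means that place and compound cannot be told apart. Gene lists and the leading genes are therefore given with and without X-3 replicate 1, and the part of these slide differences in the results was not tested.

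The markers of the cell line were present in both groups. All 10 preadipocyte and fibroblast markers, among them Pdgfra, Dlk1 and Thy1, were well above background on all 9 arrays. Of 8 adipocyte markers, Fabp4 alone was above background on all 9 arrays, and Cfd, Lep and Slc2a4 were below it on all 9. Of 10 macrophage markers, Cd68, Csf1r, Cd14, Lyz2 and Aif1 were above background on all 9 arrays, and Adgre1, Itgam and Tyrobp were below it on all 9. The summed level of the list (log2 of the summed signals) ran from 1.80 to 2.03 with X-1 and from 2.02 to 2.21 with X-3. The summed level of 10 endothelial markers ran from −1.98 to −1.87 with X-1 and from −1.59 to −1.36 with X-3. Of these, Tek, Vwf and Egfl7 were above background on all 9 arrays, and Pecam1, Cdh5, Kdr, Tie1 and Robo4 were below it on all 9. The summed level of 8 adipocyte markers ran from −3.04 to −2.75 with X-1 and from −2.61 to −2.42 with X-3. That of 10 skeletal muscle markers ran from −1.66 to −1.28 with X-1 and from −1.29 to −0.82 with X-3. For the preadipocyte and fibroblast markers it ran from 9.79 to 9.97 with X-1 and from 9.72 to 9.87 with X-3. The part of other cells in the results was not tested.

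X-3 and X-1 left the cells with measurably different transcriptomes, most of the differences being small. Of 16263 genes tested, 1840 were called (11.3%), 1207 of them higher with X-3 (7.42%) and 633 lower (3.89%), and 4586 had an unadjusted p under 0.05. The percents of list members called, given below, stand beside these 7.42% higher and 3.89% lower. The X-3 and X-1 arrays did not overlap for any of the 1840. Over all genes tested they did not overlap for 3211 higher with X-3 (19.7%) and 1948 lower (12%), so many such genes were not called. The median size of the difference was 0.26 over all genes and the 90th percentile 0.69. A difference of at least 2-fold was called for 297 genes, 185 higher and 112 lower with X-3. For 12541 genes (77.1%) the 95% interval of the difference lay within 2-fold in either direction. For 2706 genes that were not called the interval reached 2-fold, so a difference of that size lay within the interval.

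Without X-3 replicate 1 the counts rose to 1757 genes higher (10.8%) and 1679 lower (10.3%) with X-3. Of the 1840 genes called with all arrays, 1786 were also called without it, with the same sign, and 54 were not. Of the 297 genes that differed at least 2-fold, 294 were called without it. The counts also depended on other single arrays. Leaving out X-1 replicate 2 gave 521 higher and 146 lower, X-1 replicate 3 gave 527 and 173, X-3 replicate 2 gave 587 and 218, X-3 replicate 3 gave 593 and 207, and control replicate 3 gave 805 and 365. A set of 534 genes, 400 higher and 134 lower with X-3, was called with the same sign whichever of the 9 arrays was left out, and 217 of them differed at least 2-fold. On slides 2 and 3 alone the median difference of all genes was −0.01, with 2990 higher and 3526 lower, and scaling those slides to their spike-in RNA moved it to 0.18, with 1548 higher and 274 lower. Below, a gene said to hold is one called, with the same sign, whichever of the 9 arrays was left out, X-3 replicate 1 included. Holding does not cover other scalings, under which some of these genes lost their call. Of 127 called genes named here, 62 lost their call without X-1 replicate 2, 58 without X-1 replicate 3, 55 without X-3 replicate 2, 54 without X-3 replicate 3, 32 without control replicate 3, 26 without control replicate 2 or X-1 replicate 1, and 8 without control replicate 1. Leaving out X-3 replicate 1 ended 2 calls, those of Acly and Acaa1a, whose differences in the fit without that array were −0.54 and 0.45.

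**Figure D1:**
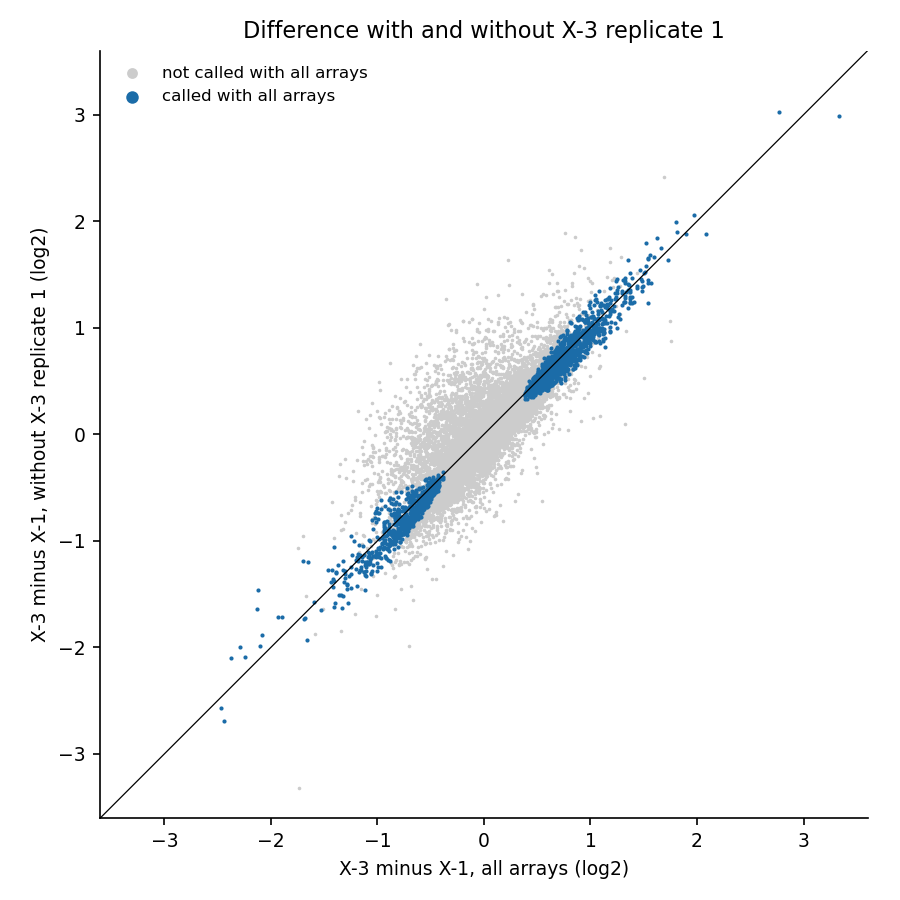
Difference between X-3 and X-1 with all arrays (x axis, log2) against the difference without X-3 replicate 1 (y axis, log2), 1 point per gene, with the line of equality. Blue points are the 1840 genes called with all arrays, which lie along the line on the same side of 0 in both fits for the 1786 genes called in both.

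Set beside the untreated controls, the larger differences were of several kinds. Of the 112 genes at least 2-fold lower with X-3, the control mean lay below both compounds for 79, between them for 22 and above both for 11. The control mean was nearer to X-3 than to X-1 for 83% of these genes, and for 57.8% of the 2-fold higher ones. Of the 185 genes at least 2-fold higher with X-3, the control mean lay above both compounds for 82, between them for 50 and below both for 53. Differences from control share the X-1 or X-3 arrays with the direct difference, and both share the control arrays, so these counts describe the groups and are not separate evidence.

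Genes of the NRF2 pathway and of glutathione metabolism were the list with the most called members. Of 39, 14 were lower with X-3 (35.9%, against 3.89% over all genes) and 2 higher (5.13%, against 7.42%). Slc7a11, the cystine importer that supplies cysteine for glutathione, was at 0.21, 0.50 and 0.51 with X-1 and at −1.02, −0.70 and −1.05 with X-3. Gsr, glutathione reductase, was at 3.85, 3.89 and 3.87 with X-1 and at 2.91, 2.72 and 2.54 with X-3. For both genes every X-1 array was above every X-3 array. Slc7a11 was lower with X-3, with a difference of −1.33 ± 0.18 (SE, adjusted p = 0.00456), and −1.27 without X-3 replicate 1. The difference of Gsr was −1.15 ± 0.13 (adjusted p = 0.00336), and −1.25 without that array. Both genes held. In the controls Slc7a11 was at −2.06, −1.64 and −1.50 and Gsr at 2.02, 1.83 and 1.87, below both compounds.

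Gsta3, a glutathione transferase, was at −1.13, −0.91 and −1.05 with X-1 and at −2.30, −2.02 and −2.52 with X-3, a difference of −1.25 ± 0.14 (adjusted p = 0.00336) that held and was −1.24 without X-3 replicate 1. Gsta1 and Gsta2, close relatives of Gsta3 whose probes may take up each other's RNA, differed by −0.87 and −0.86. Gclm, the regulatory subunit of the enzyme that makes the first bond of glutathione, was at 0.79, 0.64 and 0.31 with X-1 and at −1.27, −0.21 and −0.53 with X-3. Its difference of −1.25 ± 0.26 (adjusted p = 0.019) was −0.95 without X-3 replicate 1, which lay lowest, and it was not called without X-1 replicate 1 or X-1 replicate 2. The other called members that were lower ranged from −1.05 for Gclc, the catalytic subunit of the same enzyme, to −0.48 for Prdx6, a peroxiredoxin. They included Txnrd1, thioredoxin reductase, at −0.91, Cat, catalase, at −0.75, the efflux pumps Abcc1 and Abcc4 at −0.72 and −0.70, Nqo1, the quinone reductase, at −0.58, and Sod2, mitochondrial superoxide dismutase, at −0.49. The members called higher with X-3 were Gpx4, which removes lipid hydroperoxides, at 0.61, and Gstt1 at 0.46, and neither held.

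The promoters of 3 of the called genes of this list hold the core of the antioxidant response element, the site that NRF2 binds. They are shown because the list is defined by that factor. The letters searched were TGACNNNGC on both strands in the 250 bases before the RefSeq start site, build GRCm38.p6. The core was found for 7 of 33 members with a promoter entry (21.2%), against 10.1% of 27025 promoters, and for 3 of the 12 called members with an entry. Over 10574 tested genes the share was 11.8%. Capitals mark the match. The windows are chr3:122245307-122245556, plus strand, for Gclm, chr1:21240335-21240584, plus strand, for Gsta3, and chr14:118706220-118706469, minus strand, for Abcc4.
Gclm: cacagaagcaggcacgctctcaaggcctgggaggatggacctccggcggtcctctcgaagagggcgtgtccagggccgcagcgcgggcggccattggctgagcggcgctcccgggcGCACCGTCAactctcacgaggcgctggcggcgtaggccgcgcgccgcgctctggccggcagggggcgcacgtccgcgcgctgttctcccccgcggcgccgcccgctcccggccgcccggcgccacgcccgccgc
Gsta3: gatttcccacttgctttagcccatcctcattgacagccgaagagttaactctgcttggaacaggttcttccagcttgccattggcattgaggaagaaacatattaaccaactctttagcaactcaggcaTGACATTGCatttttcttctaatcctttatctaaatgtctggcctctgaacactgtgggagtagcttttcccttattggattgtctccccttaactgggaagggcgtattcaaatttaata
Abcc4: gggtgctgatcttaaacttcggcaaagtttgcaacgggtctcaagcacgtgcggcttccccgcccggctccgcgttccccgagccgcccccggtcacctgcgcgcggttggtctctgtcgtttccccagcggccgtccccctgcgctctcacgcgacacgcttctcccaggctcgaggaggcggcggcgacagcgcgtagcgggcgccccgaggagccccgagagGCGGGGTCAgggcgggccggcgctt
The match begins 134 bases before the start site in Gclm, 121 in Gsta3 and 25 in Abcc4. A match is a description of these letters and does not show binding.

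Over the 39 tested members of the list the median difference was −0.36, against 0.01 over all genes, and 32 of 39 differences were negative, against 48.6% over all genes. The median was −0.18 on slide 1, −0.51 on slide 2 and −0.56 on slide 3, against 0.16, −0.03 and −0.005 over all genes. The list's median stayed negative under median scaling (−0.37), quantile normalization (−0.35), spike-in scaling (−0.31, against 0.18 over all genes) and another background correction (−0.36). The count of lower members was 6 under median scaling, 4 under spike-in scaling on slides 2 and 3, where it was 29 without that scaling, and 11 under the other background correction. Without X-3 replicate 1, 16 members were lower, 2 were higher and the median was −0.47. Leaving out another single array gave 6 members lower for X-1 replicate 2, 8 for X-1 replicate 3, 9 for either of X-3 replicates 2 and 3, and 11 to 15 for the others. Abcc1, Abcc4, Gsr, Gsta3, Slc7a11 and Txnrd1 held, though Abcc1 and Abcc4 were not called under median scaling or spike-in scaling. Against control the list's median was 0.70 for X-1 and 0.31 for X-3. Hmox1, heme oxygenase, ranged from 3.26 to 5.51 with X-1 and from 3.22 to 4.93 with X-3, and its interval, −2.38 to 1.69, was too wide to place it.

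**Figure D2:**
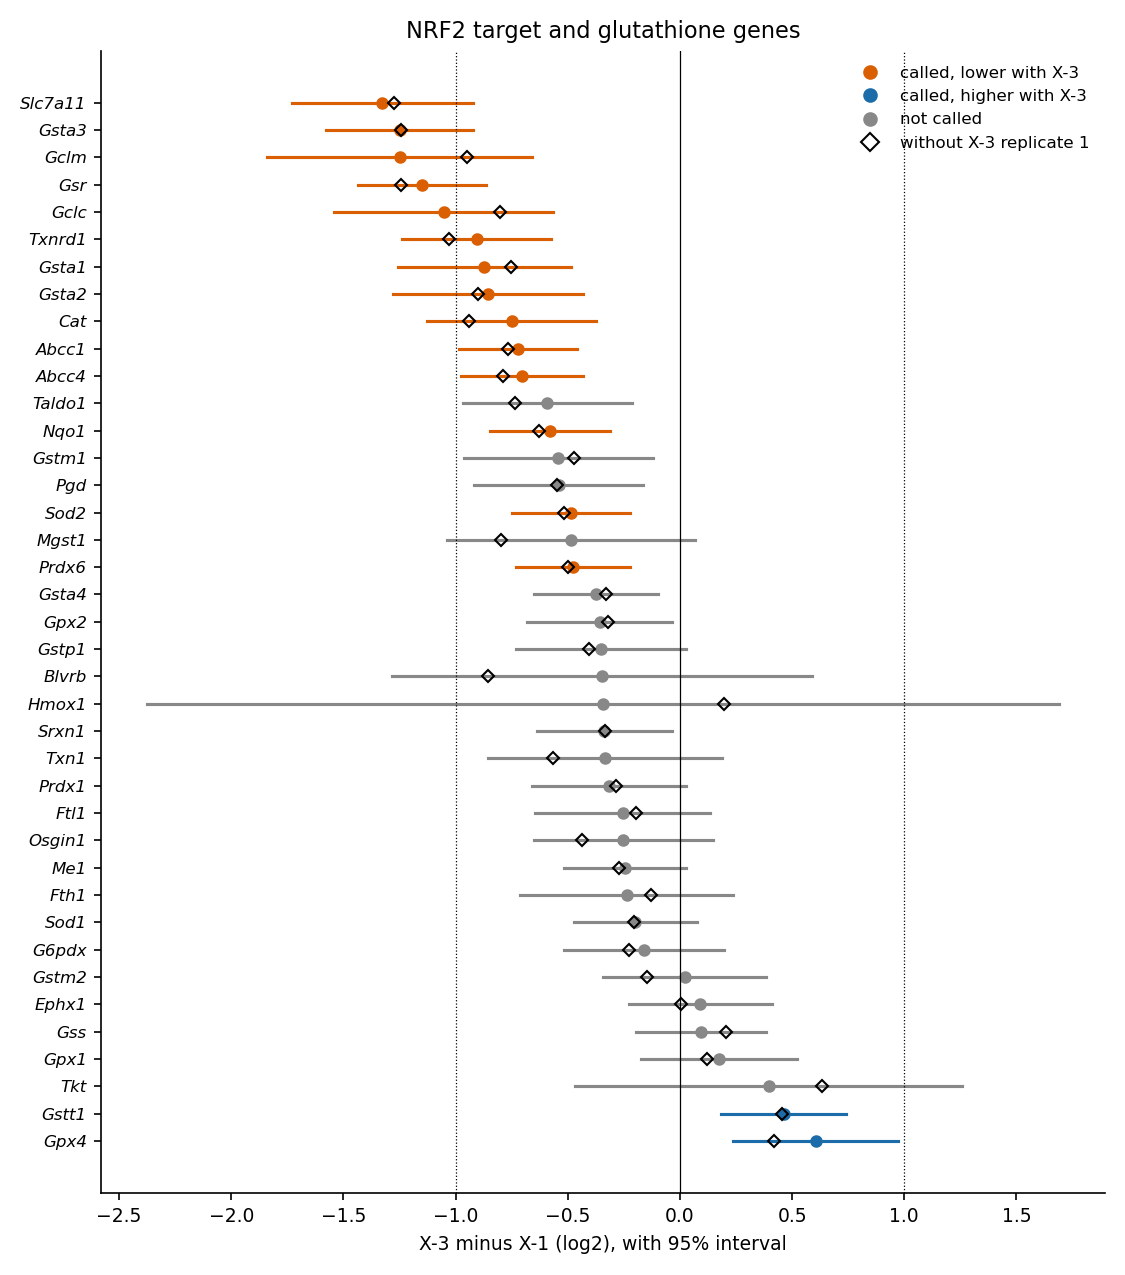
Difference between X-3 and X-1 (x axis, log2) for the 39 tested NRF2 and glutathione genes, ordered by difference. Points with bars are the fit to all arrays with 95% intervals, coloured where called (14 lower in orange, 2 higher in blue), and open diamonds are the difference without X-3 replicate 1, which for Hmox1 changes sign.

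Several genes of growth factor signalling through ERK were also lower with X-3. Areg and Ereg, ligands of the EGF receptor, were the called members among 10 tested ligands and receptors (20%), and both held. When X-3 replicate 1 was left out, 3 of the 10 were lower. Ereg was at 1.24, 1.57 and 1.76 with X-1 and at 0.24, −0.09 and −0.17 with X-3, a difference of −1.53 ± 0.18 (adjusted p = 0.00336), and −1.65 without X-3 replicate 1. Its second probe differed by −0.62. Areg was at −4.07, −4.37 and −4.72 with X-1 and was not well above background on any X-3 or control array, so it was at least 2.98-fold lower with X-3 (adjusted p = 0.00336). Areg passed the filter through X-1 alone, so this p is not separate support for the direction.

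Of 11 genes of ERK feedback, 4 were lower with X-3 (36.4%, against 3.89% over all genes) and 0 higher. Dusp6, a phosphatase that acts on ERK, was at 2.70, 3.12 and 3.05 with X-1 and at 2.06, 1.82 and 1.63 with X-3, a difference of −1.12 ± 0.15 (adjusted p = 0.00523), and −1.23 without X-3 replicate 1. The control arrays, at 1.59, 1.62 and 1.67, were near the X-3 arrays. Dusp4, a nuclear phosphatase of the same family, differed by −1.04 ± 0.18 (adjusted p = 0.00917). Dusp6 and Dusp4 held, while Errfi1 (−0.61), an inhibitor of the EGF receptor, and Dusp1 (−0.60) did not. The count of lower members was 2 when X-1 replicate 2, X-1 replicate 3 or X-3 replicate 2 was left out. The list's median was −0.31, and −0.63 without X-3 replicate 1, where 5 members were lower. By slide the medians were 0.006, −0.57 and −0.48, against 0.16, −0.03 and −0.005 over all genes, so slide 1 carried little of the list's difference. Under median scaling 2 members were lower, as under spike-in scaling on slides 2 and 3.

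Of 27 immediate early genes, transcription factors and regulators that respond within minutes to growth signals, 7 were lower with X-3 (25.9%) and 1 was higher (3.70%), with a median of −0.33. Over all genes 3.89% were lower and 7.42% higher. Klf4, a zinc finger factor, was lower, with a difference of −0.83 ± 0.12 (adjusted p = 0.00609) and held. Maff (−0.89), Arc (−0.84), Jund (−0.68), Fosl2 (−0.64), Csrnp1 (−0.60) and Atf3 (−0.48) did not hold. Klf2 was higher by 0.80, but its second probe differed by −0.72. The count of lower members was 12 without X-3 replicate 1. It was 1 when X-1 replicate 2, X-1 replicate 3 or X-3 replicate 2 was left out, and 2 when X-3 replicate 3 was. The AP-1 element TGACTCA was in the 250 bases before the start site of 0 of 20 members with a promoter entry (4.43% of 27025 promoters), and the cyclic AMP element TGACGTCA in 1 of 20 (1.62%), both strands searched. Over 10574 tested genes the shares were 3.16% and 2.59%. Egr1, one of the first genes to answer ERK, was at 4.09, 4.27 and 4.22 with X-1 and at 4.36, 4.18 and 4.26 with X-3, and the arrays overlapped. Its interval ran from −0.24 to 0.38, so a 2-fold difference lay outside it. Fos, the partner of JUN in the AP-1 factor, differed by −0.51 (interval −0.99 to −0.04, adjusted p = 0.15), and by −0.76 without X-3 replicate 1 (adjusted p = 0.01).

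Among inflammatory genes some members were lower with X-3 by a wide margin and others were not called. Ptgs2, cyclooxygenase 2, which makes the precursor of the prostaglandins, was at 2.44, 2.75 and 2.51 with X-1 and at 0.93, 1.06 and 0.92 with X-3. The groups were far apart against the spread within each. The difference of −1.60 ± 0.14 (adjusted p = 0.00336) held, was −1.58 without X-3 replicate 1 and was −1.66 on a second probe. The controls lay between −3.30 and −2.88. Ptgis, prostacyclin synthase, was higher with X-3 by 0.87 ± 0.19 (adjusted p = 0.0232), but lost its call when X-1 replicate 2, X-1 replicate 3 or X-3 replicate 3 was left out. Ptgs2 and Ptgis were the called members among 13 genes of prostaglandin synthesis and reception (7.69% lower and 7.69% higher, against 3.89% and 7.42% over all genes). Of the 13, 4 were lower and 1 higher without X-3 replicate 1.

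Of 21 cytokine and NF-kB genes, 4 were lower (19.0%) and 1 higher (4.76%) with X-3, and the list's median was 0.07. Il1rl1, the receptor of interleukin 33, was at 3.52, 3.85 and 3.79 with X-1 and at 2.78, 2.37 and 2.48 with X-3, a difference of −1.17 ± 0.15 (adjusted p = 0.00383) that held. Csf3 (−1.27), the granulocyte growth factor, Tnfaip6 (−0.99), Il6 (−0.70) and the one higher member, Nfkb2 (0.48), did not hold. Il6 was at −0.61, −0.55 and −0.55 with X-1, at −0.93, −1.39 and −1.50 with X-3 and between −4.78 and −4.39 in the controls. The count of lower members was 7 without X-3 replicate 1. It was 1 when X-1 replicate 2 or X-1 replicate 3 was left out, and 2 when X-1 replicate 1, X-3 replicate 2 or X-3 replicate 3 was. Of 13 chemokine genes limma called 0 with all arrays, 4 had an unadjusted p under 0.05, and 1 was called lower without X-3 replicate 1. Ccl2, which attracts monocytes, was at 7.71, 7.92 and 7.82 with X-1 and at 8.10, 7.71 and 7.65 with X-3, and its interval was −0.32 to 0.32. Lcn2, an iron-binding acute phase protein, differed by −0.67 (adjusted p = 0.0844) and by −0.90 without X-3 replicate 1 (adjusted p = 0.014).

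Of 44 interferon response genes tested, 40 had a negative difference, against 48.6% of all genes. Of the 44, 5 were called, all of them lower with X-3 (11.4%, against 3.89% over all genes). The median was −0.42, and −0.35 without X-3 replicate 1. Oas2, a sensor of double-stranded RNA, was at 2.31, 2.30 and 2.44 with X-1 and at 1.30, 1.29 and 0.60 with X-3, a difference of −1.29 ± 0.23 (adjusted p = 0.0114), and −1.41 without X-3 replicate 1. It was the member that held. Rsad2, the antiviral enzyme viperin, was at 3.02, 3.02 and 3.00 with X-1 and at 2.12, 1.91 and 1.71 with X-3, a difference of −1.10 ± 0.26 (adjusted p = 0.0281). Its call was lost without control replicate 3, without any X-1 array and without X-3 replicate 2 or 3.

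Oasl1 (−0.92), Rtp4 (−0.76) and Ifi204 (−0.75) were the other called members. Oas3 (−1.06), Stat2 (−1.02) and Ifi205 (−1.16) differed as much without passing the test, with adjusted p between 0.0608 and 0.132. Cxcl10 differed by −0.56 (interval −0.94 to −0.17, adjusted p = 0.0676). The count of lower members was 8 without X-3 replicate 1. It was 1 when X-1 replicate 2, X-1 replicate 3 or X-3 replicate 3 was left out, and 3 when X-1 replicate 1 was. Under spike-in scaling on slides 2 and 3 the list's median was −0.18, against 0.18 over all genes in that setting. Some of these genes, the Oas and Ifi200 families, have close copies whose probes may take up each other's RNA. Ifnb1, interferon beta, which starts this response when secreted, ran the other way. It was at −4.22, −4.01 and −3.87 with X-3 and was not well above background on any X-1 or control array. Ifnb1 was thus at least 3.05-fold higher with X-3 (adjusted p = 0.00959), and it held. It passed the filter through X-3 alone, so this p is not separate support for the direction.

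The interferon-stimulated response element, with the core letters GAAANNGAAA on either strand, was found in the 250 bases before the start site for 14 of 33 list members with an entry (42.4%), against 3.04% of 27025 promoters. Over 10574 tested genes the share was 2.72%. Rsad2 was 1 of the 2 called members with an entry and has the core 120 bases before its start site, shown in capitals in the window chr12:26456453-26456702, minus strand, build GRCm38.p6.
Rsad2: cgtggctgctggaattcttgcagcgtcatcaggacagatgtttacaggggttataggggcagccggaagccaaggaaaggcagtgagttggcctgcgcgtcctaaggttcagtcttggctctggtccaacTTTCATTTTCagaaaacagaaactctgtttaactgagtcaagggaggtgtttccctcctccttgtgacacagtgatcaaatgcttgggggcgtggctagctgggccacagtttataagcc

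The median of 24 hypoxia genes stood above control by 3.11 with X-1 and by 2.72 with X-3. Of the 24, 7 were lower with X-3 (29.2%, against 3.89% over all genes) and 0 higher, with a median of −0.37. Adm, adrenomedullin, a vasodilator peptide, was at 3.59, 3.84 and 3.75 with X-1, at 2.92, 2.65 and 2.68 with X-3 and at 0.35, 0.02 and 0.07 in the controls. Plod2, which hydroxylates collagen lysines, was at 1.68, 2.09 and 1.97 with X-1 and at 0.69, 0.88 and 0.95 with X-3. In both genes the compounds were apart from each other and from control. The difference was −0.98 ± 0.14 for Adm (adjusted p = 0.00552), and −1.06 without X-3 replicate 1. For Plod2 it was −1.07 ± 0.17 (adjusted p = 0.00766), and −0.999 without that array. Ankrd37, a HIF target of unsettled function, differed by −0.88 ± 0.15 (adjusted p = 0.00933), and all 3 held.

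Bnip3l (−0.67), a mitophagy receptor, Egln3 (−0.47), Mxi1 (−0.45) and Ndrg1 (−0.43) were called and did not hold. Egln3, the prolyl hydroxylase that HIF itself induces, was at 4.03, 4.22 and 4.09 with X-1, at 3.78, 3.45 and 3.69 with X-3 and between −2.50 and −2.35 in the controls. Its difference, −0.47 ± 0.13 (adjusted p = 0.0447), was small beside the 6.55 and 6.08 that separated X-1 and X-3 from control. Slc2a1, the main glucose importer, differed by −0.30 (interval −0.79 to 0.19) and Vegfa, the endothelial growth factor, by −0.30 (interval −0.65 to 0.05). Without X-3 replicate 1, 11 members were lower. The count was 3 when any one of replicates 2 and 3 of either compound was left out, and 4 when control replicate 2 or control replicate 3 was. Under median scaling it was 2.

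The hypoxia response core ACGTG, searched on both strands, was present in the 250 bases before the start site of 11 of 18 list members with an entry (61.1%), against 16.6% of 27025 promoters. Over 10574 tested genes the share was 21.5%. The core was present for 2 of the 4 called members with an entry. It is printed for Ankrd37, the called gene with a match whose difference held, at chr8:45999851-46000100, minus strand, build GRCm38.p6. The matches lie 241 and 6 bases before the start site.
Ankrd37: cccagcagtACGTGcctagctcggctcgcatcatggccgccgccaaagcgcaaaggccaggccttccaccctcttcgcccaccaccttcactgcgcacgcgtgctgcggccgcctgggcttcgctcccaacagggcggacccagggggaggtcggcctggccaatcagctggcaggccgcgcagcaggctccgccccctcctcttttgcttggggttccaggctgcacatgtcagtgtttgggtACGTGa

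Of 19 glycolysis and lactate genes 1 was higher (5.26%, against 7.42% over all genes) and 1 lower (5.26%, against 3.89%) with X-3. The counts were 1 and 2 without X-3 replicate 1, and the median was −0.03. Ldhb, the lactate dehydrogenase subunit that favours pyruvate, was at 1.91, 2.11 and 1.92 with X-1, at 3.15, 2.88 and 2.80 with X-3 and at 4.36, 4.15 and 4.12 in the controls. It was higher with X-3 by 0.96 ± 0.14 (adjusted p = 0.0055) and held, with 0.86 when X-3 replicate 1 was left out. Slc16a1, a lactate transporter, differed by −0.74 and did not hold, and its other probes differed by −0.76 and −2.13. Ldha differed by −0.37 (interval −0.71 to −0.04, adjusted p = 0.134), and Hk2, hexokinase 2, by −0.58 (adjusted p = 0.072), or −0.77 without X-3 replicate 1 (adjusted p = 0.009).

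**Figure D3:**
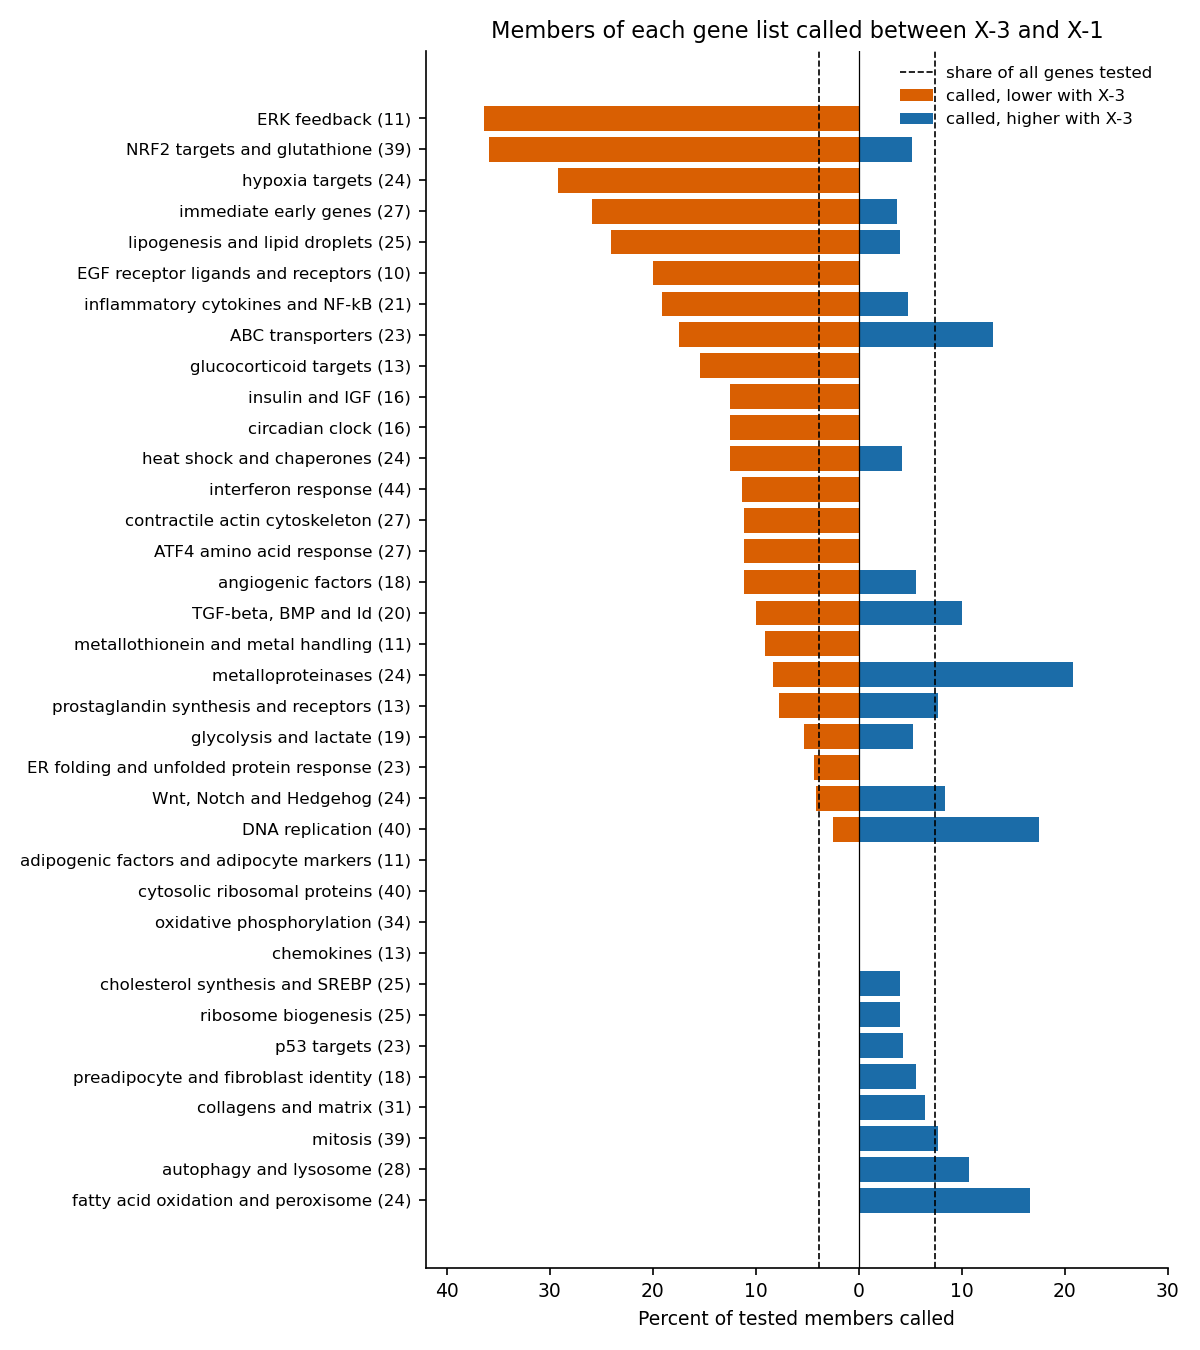
Share of the tested members of each gene list with at least 10 tested that were called higher (blue, right) or lower (orange, left) with X-3, in percent, with the number tested in brackets. Dashed lines mark the shares over all genes tested, 7.42% higher and 3.89% lower. ERK feedback, NRF2 and hypoxia genes have the longest orange bars and metalloproteinases the longest blue bar.

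Among cell cycle genes, of 40 DNA replication genes 7 were higher (17.5%, against 7.42% over all genes) and 1 lower (2.5%, against 3.89%). The counts were 7 and 2 without X-3 replicate 1, and the list's median was 0.26, or 0.12 without X-3 replicate 1. The medians by slide were 0.48, 0.02 and 0.03, against 0.16, −0.03 and −0.005 over all genes. Slide 1 thus carried most of the list's median, and part of its value was shared with all genes. E2f1, a factor that drives entry into S phase, was at −0.10, −0.67 and −0.17 with X-1 and at 0.64, 0.89 and 0.89 with X-3. E2f2, of the same family, was at 0.42, 0.71 and 0.42 with X-1 and at −1.08, −0.57 and −0.77 with X-3. The pair therefore moved in opposite directions, E2f1 by 1.12 ± 0.18 (adjusted p = 0.00766) and E2f2 by −1.32 ± 0.16 (adjusted p = 0.00336), and both held. Without X-3 replicate 1 they differed by 1.21 and −1.19.

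The other called replication genes were Chaf1a (0.62), Mcm5 (0.59), Pold1 (0.59), Prim1 (0.59), Fen1 (0.51) and Lig1 (0.46), which did not hold. The count of higher members was 1 when any one of replicates 2 and 3 of either compound was left out, and 2 when X-1 replicate 1, control replicate 2 or control replicate 3 was. The E2F element TTTGGCGC was in the same promoter window of 3 of 34 members with an entry (8.82%), Mcm5 being the called one, against 0.437% of 27025 promoters, on either strand. Over 10574 tested genes the share was 0.775%. Of 39 mitosis genes 3 were higher with X-3, a share of 7.69% against 7.42% over all genes, and 4 without X-3 replicate 1. Espl1, the separase that cuts sister chromatids apart, was higher by 0.73 ± 0.12 (adjusted p = 0.00865) and held, while Bub1b (0.73) and Ube2c (0.66) did not. Under median scaling 0 mitosis genes were called, Espl1 included. Top2a, topoisomerase II, was at −1.49, −2.02 and −1.88 with X-1 and at −2.53, −1.59 and −1.48 with X-3. Its difference of −0.07 became 0.26 without X-3 replicate 1 and was not called either way. Cdkn1a, the cell cycle inhibitor p21, and Ccnd1, cyclin D1, had intervals of −0.33 to 0.64 and −0.18 to 0.51.

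Of 24 metalloproteinases and related proteases, 5 were higher with X-3 (20.8%, against 7.42% over all genes) and 2 lower (8.33%, against 3.89%), or 5 and 4 without X-3 replicate 1. Mmp2, gelatinase A, was at 5.25, 5.02 and 4.84 with X-1, at 6.34, 6.08 and 6.21 with X-3 and at 5.54, 5.58 and 5.61 in the controls. The control arrays thus lay between the compounds. Its difference was 1.17 ± 0.13 (adjusted p = 0.00336), and 1.11 without X-3 replicate 1. Mmp11 differed by 1.07 ± 0.12 (adjusted p = 0.00336), Mmp23 by 0.82 ± 0.11 (adjusted p = 0.00475) and Mmp19 by 0.77, and these 4 genes held. Adamts4 (0.54) and, in the other direction, Adam10 (−0.44) did not hold. Plaur, the urokinase receptor, was lower with X-3, with a difference of −0.97 ± 0.18 (adjusted p = 0.0124) and lost its call when X-1 replicate 2 was left out. Plau, its ligand, varied too widely to be placed (interval −0.73 to 2.76).

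Of 31 collagen and matrix genes 2 were higher (6.45%, against 7.42% over all genes) and 0 lower with X-3, or 5 and 4 without X-3 replicate 1. Both encode chains of collagen VI: Col6a2 differed by 1.08 ± 0.15 (adjusted p = 0.00561) and held, although its second probe differed by 0.18, and Col6a1 differed by 0.72 and did not hold. Col1a1, the main collagen I chain, had an interval of −0.36 to 0.14. Of 27 contractile genes 3 were lower (11.1%, against 3.89% over all genes) and 0 higher, or 4 and 1 without X-3 replicate 1. Cnn1, calponin, was at −4.33, −4.11 and −4.29 with X-1 and at −5.32, −5.34 and −5.67 with X-3, against −5.39, −5.50 and −5.62 in the controls. Its difference of −1.20 ± 0.14 (adjusted p = 0.00336) held, and that of Tpm4 (−0.64) and Ccn2 (−0.61) did not.

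In the TGF-beta and BMP list of 20, 2 genes were higher (10%, against 7.42% over all genes) and 2 lower (10%, against 3.89%) with X-3, or 2 and 5 without X-3 replicate 1. Id4, an inhibitor of basic helix-loop-helix factors, was at 0.32, 0.63 and 0.64 with X-1, at −0.50, −1.06 and −0.71 with X-3 and at −0.03, −0.16 and −0.24 in the controls. It differed by −1.28 ± 0.17 (adjusted p = 0.00416) and held, with −1.41 when X-3 replicate 1 was left out. Ltbp1, which anchors latent TGF-beta, differed by −1.11 on the brighter probe and 0.09 on the other, and lost its call when X-1 replicate 2 was left out. Tgfb1 itself was higher by 0.85 and Tgfbi, which it induces, by 0.71, and neither held.

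Secreted growth factors were lower with X-3 in part. Of 18 angiogenic factors 2 were lower (11.1%), both of which held, and 1 was higher (5.56%), Pgf (0.54), which did not. The counts were 3 and 1 without X-3 replicate 1. Fgf7, keratinocyte growth factor, was at 2.86, 3.42 and 3.53 with X-1 and at 1.92, 2.03 and 1.94 with X-3, a difference of −1.30 ± 0.21 (adjusted p = 0.00826), and −1.29 without X-3 replicate 1. Angpt1, a ligand of the endothelial receptor TIE2, was at −2.49, −2.42 and −2.16 with X-1, at −4.09, −3.38 and −3.87 with X-3 and at −0.87, −0.44 and −0.39 in the controls. It was thus below control with both compounds, and the difference between them was −1.43 ± 0.21 (adjusted p = 0.00597), or −1.27 without X-3 replicate 1. The second probe of Angpt1 differed by −0.77. Of 24 Wnt, Notch and Hedgehog genes 2 were higher (8.33%, against 7.42% over all genes) and 1 lower (4.17%, against 3.89%), or 2 and 5 without X-3 replicate 1. Wnt4 (0.90 ± 0.11, adjusted p = 0.00336) held, and Ccn4 (0.56) and Hey1 (−0.57) did not. Of 16 insulin and IGF genes 2 were lower (12.5%), Igfbp3 (−0.89) and Igf1r (−0.83), and neither held. With X-3 replicate 1 left out, 1 was higher and 3 were lower. The list's median was 0.10, and 11 of the 16 differences were positive. Igfbp4 differed by 1.07 without being called with all arrays, and by 0.41 on its second probe.

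Of 11 tested adipogenic factors and adipocyte markers limma called 0 with all arrays, 3 had an unadjusted p under 0.05, and 1 was called higher and 1 lower without X-3 replicate 1. Pparg, the master factor of fat cells, was at 1.94, 1.88 and 1.86 with X-1 and at 2.38, 1.79 and 1.89 with X-3 (interval −0.24 to 0.49). Fabp4, its target, had an interval of −0.09 to 0.79, with both compounds between −4.19 and −3.35 and the controls between −1.40 and −0.87. Cd34, a surface protein of adipose progenitors, was the one called member of 18 preadipocyte and fibroblast genes (5.56%), against 2 higher and 2 lower without X-3 replicate 1. Over all genes 7.42% were called higher. Cd34 was at −1.88, −1.91 and −1.66 with X-1, at −0.70, −0.79 and −0.87 with X-3 and between −2.41 and −2.16 in the controls, a difference of 1.03 ± 0.12 (adjusted p = 0.00336) that held and was 0.99 without X-3 replicate 1.

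In lipid metabolism 4 of 24 genes of fatty acid oxidation and peroxisomes were higher with X-3 (16.7%, against 7.42% over all genes) and 0 lower, or 4 and 1 without X-3 replicate 1. Hadha, of mitochondrial beta-oxidation, differed by 0.79 ± 0.12 (adjusted p = 0.00628), though by −0.12 on its second probe, and Pex19, of peroxisome assembly, by 0.79 ± 0.12 (adjusted p = 0.0067), and both held. Under median scaling 1 member of the list was called. Ucp2, an uncoupling protein, differed by 1.09 and Acaa1a, a peroxisomal thiolase, by 0.54, and neither held. The other probes of Acaa1a differed by 1.06 and 1.09. Of 25 genes of lipogenesis and lipid droplets 6 were lower (24%, against 3.89% over all genes) and 1 higher (4%, against 7.42%) with X-3, or 7 and 2 without X-3 replicate 1. Hilpda, a lipid droplet protein, differed by −0.69 ± 0.11 (adjusted p = 0.00826) and held. Under median scaling and under spike-in scaling 0 members of the list were lower, so it was not called there. Acsl1, Acly, Acsl3, Dgat2 and Plin2, lower by differences of −0.67 to −0.46, and Fads1 (0.67), a fatty acid desaturase, did not hold. The count of lower members was 1 when X-1 replicate 2, X-1 replicate 3, X-3 replicate 2, X-3 replicate 3 or control replicate 3 was left out, and 3 when control replicate 2 was. Fasn had an interval of −0.47 to 0.14 and Scd1 of −0.63 to −0.05, and neither was called.

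Among 23 ABC transporters 3 were higher (13.0%, against 7.42% over all genes) and 4 lower (17.4%, against 3.89%), or 4 and 6 without X-3 replicate 1. Abca2, a lipid transporter of lysosomes, was at −2.05, −2.29 and −2.45 with X-1, at −0.95, −0.60 and −0.57 with X-3 and at −0.69, −0.46 and −0.38 in the controls. Its difference of 1.56 ± 0.16 (adjusted p = 0.00336) held, was 1.68 without X-3 replicate 1 and was 1.71 on a second probe. Abca3 (0.97, but 0.20 on a second probe) and Abcb8 (0.73) were also higher and held, as did the lower Abcc1 and Abcc4 given above. Under median scaling 2 members of the list were higher and 0 lower, and under spike-in scaling 4 were higher and 0 lower. Abcc1 and Abcc4 were thus not called under either. Abcb4 and Abcb1b, with differences of −0.62 each, did not hold.

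Of 24 heat shock genes 3 were lower (12.5%, against 3.89% over all genes) and 1 higher (4.17%, against 7.42%) with X-3, or 4 and 1 without X-3 replicate 1. Hspa1b, an inducible HSP70, was at −1.34, −0.83 and −0.55 with X-1, at −2.30, −2.54 and −2.13 with X-3 and between −2.19 and −2.07 in the controls, a difference of −1.42 ± 0.20 (adjusted p = 0.0055) that held and was −1.43 without X-3 replicate 1. Hspa4l (−0.69), Hsp90aa1 (−0.51) and Cryab (0.68) did not hold. Hspa1a, a near-identical copy of Hspa1b, may share the probe's signal. Of 27 genes of the ATF4 amino acid response 3 were lower (11.1%), the amino acid transporters Slc7a3 (−0.63) and Slc7a5 (−0.60) and the lipoprotein receptor Vldlr (−0.67). Without X-3 replicate 1, 4 were lower and 2 higher. Of 23 unfolded protein response genes Edem1 (−0.49) was lower (4.35%), against 6 genes without X-3 replicate 1. The other probes of Edem1 differed by 0.09 and −0.59. Of 11 metal handling genes the iron exporter Slc40a1 (−0.50) was lower (9.09%), and 1 gene was lower without X-3 replicate 1 too. Of 16 clock genes Cry1, a repressor of the clock, was lower with a difference of −1.04 ± 0.22 (adjusted p = 0.0191), as was Nfil3 (−0.45, but 0.02 on a second probe). These were 12.5% of the list, and 4 clock genes were lower without X-3 replicate 1. None of the genes of these 4 lists held. The E-box CACGTG was in the same promoter window of 5 of 14 clock genes with an entry (35.7%), Cry1 among them, against 6.05% of 27025 promoters. Over 10574 tested genes the share was 8.28%.

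Of 34 oxidative phosphorylation genes and 40 cytosolic ribosomal protein genes limma called 0 with all arrays, 4 of each had an unadjusted p under 0.05, and without X-3 replicate 1 it called 2 higher and 3 lower of the former and 2 higher of the latter. All 34 of the former and 39 of the latter had intervals within 2-fold. Their medians were −0.01 and −0.03. Higher with X-3 in further lists were Ddb2 (0.66) of 23 p53 targets, Mvk (0.58) of 25 cholesterol synthesis genes, Rrp9 (0.45) of 25 ribosome biogenesis genes, and 3 of 28 autophagy and lysosome genes, Atg7 (0.71) among them. A second probe of Atg7 differed by −0.77 and the mean of its probes by −0.034, so its direction depends on the probe. When X-3 replicate 1 was left out, 2 of the p53 targets were higher and 4 lower, 1 and 1 of the cholesterol genes, 1 and 3 of the ribosome biogenesis genes, and 3 and 2 of the autophagy and lysosome genes. Of 13 glucocorticoid targets Dusp1 and Errfi1 were lower (15.4%), and of 5 aryl hydrocarbon receptor targets Nqo1 (20%), as given above, against 5 and 3 lower without X-3 replicate 1. All 5 aryl hydrocarbon receptor targets had negative differences, with a median of −0.36, against 0.01 over all genes. Cyp1b1 differed by −0.33 on a probe and by −0.83 on another. Among markers of other cell types Mrc1 (−0.95) of 6 tested macrophage markers was lower, Egfl7 (0.75) of 3 endothelial markers was higher, and limma called 0 of 5 skeletal muscle markers, 2 having an unadjusted p under 0.05. The same numbers of markers were called without X-3 replicate 1. None of the genes named in these further lists held.

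Of the 30 named genes with the largest differences, 15 in each direction, 28 held, and 21 had a mean level within that of the dimmest 25% of genes. For 11 of them the dimmer compound was not well above background on any of its arrays, and for 14 the call was lost under another background correction (normexp). Those 11 passed the filter through the brighter compound alone, so their p and their holding are not separate support for the direction. The highest difference of all, 3.33, belonged to a feature with no reference symbol. Csdc2, which encodes a cold shock domain protein, was at −4.81, −4.33 and −3.75 with X-3 and not above background with X-1, so it was at least 2.6-fold higher with X-3 (adjusted p = 0.00395). By the same rule Ubxn11 was at least 2.93-fold, Trpm5, a cation channel, at least 2.06-fold, Morn1 at least 1.95-fold, Tm4sf5 at least 1.66-fold and Dydc2 at least 1.23-fold higher. Of these, Morn1 lost its call when X-3 replicate 2 or 3 was left out, and its difference changed sign with no filter on dim probes.

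Among genes above background on all arrays of both compounds, Kdm4d, a histone H3 lysine demethylase, was at −5.43, −5.14 and −4.91 with X-1 and at −3.25, −3.53 and −3.03 with X-3, with the controls between at −4.30, −4.34 and −4.04. It differed by 1.89 ± 0.18 (adjusted p = 0.00336), and by 1.88 without X-3 replicate 1. Cdk5, a kinase best known from neurons, was at −1.06, −1.03 and −0.78 with X-1, at 0.49, 0.58 and 0.84 with X-3 and at 1.91, 2.36 and 2.41 in the controls. It was below control with both compounds and differed by 1.59 ± 0.17 (adjusted p = 0.00336), or 1.67 without X-3 replicate 1. 1700001O22Rik differed by 1.82 on its brighter probe and 0.04 on the other. Fndc7 (1.56), Zmynd12 (1.54) and C8g (1.54), a complement component, also held, and Stk40 (1.54) lost its call when X-1 replicate 2 or X-3 replicate 2 was left out.

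At the lower end stood a family of cysteine protease inhibitors, the stefins and cystatins. Stfa3 was at −1.74, −1.66 and −1.78 with X-1 and at −3.98, −4.21 and −4.38 with X-3, a difference of −2.46 ± 0.33 (adjusted p = 0.00456), and −2.57 without X-3 replicate 1. Csta1 was at −2.88, −3.06 and −3.04 with X-1 and at −4.92, −5.95 and −5.42 with X-3, a difference of −2.44 ± 0.37 (adjusted p = 0.00656), and −2.69 without that array. Cstdc5, above background on 1 of 3 X-3 arrays, differed by −2.38, and Cstdc4, below background on every X-3 array, was at least 1.76-fold lower. These genes are close copies in 1 cluster, so their probes may report the same RNA, and they are not counted as separate observations.

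Sprr2h, a protein of the cornified envelope of epithelia, was at −3.87, −3.34 and −3.73 with X-1 and at −6.18, −5.65 and −5.83 with X-3, a difference of −2.24 ± 0.21 (adjusted p = 0.00336), and −2.09 without X-3 replicate 1. Tex19.1, a germline gene that restrains transposons, differed by −2.09 and Hcar2, the niacin receptor, by −1.69. Il13ra2, a decoy receptor of interleukin 13, was at least 2.56-fold and Cfap45, a protein of cilia, at least 2.22-fold lower with X-3. Nav3, a microtubule-binding protein, was at 0.09, 0.36 and 0.36 with X-1, at −1.27, −1.01 and −1.17 with X-3 and between −0.66 and −0.61 in the controls, and differed by −1.42 ± 0.12 (adjusted p = 0.00336), or −1.36 without X-3 replicate 1. Mapk8, the kinase JNK1, differed by −1.47 on its brightest probe, and its 4 probes ranged down to −0.13.

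**Figure D4:**
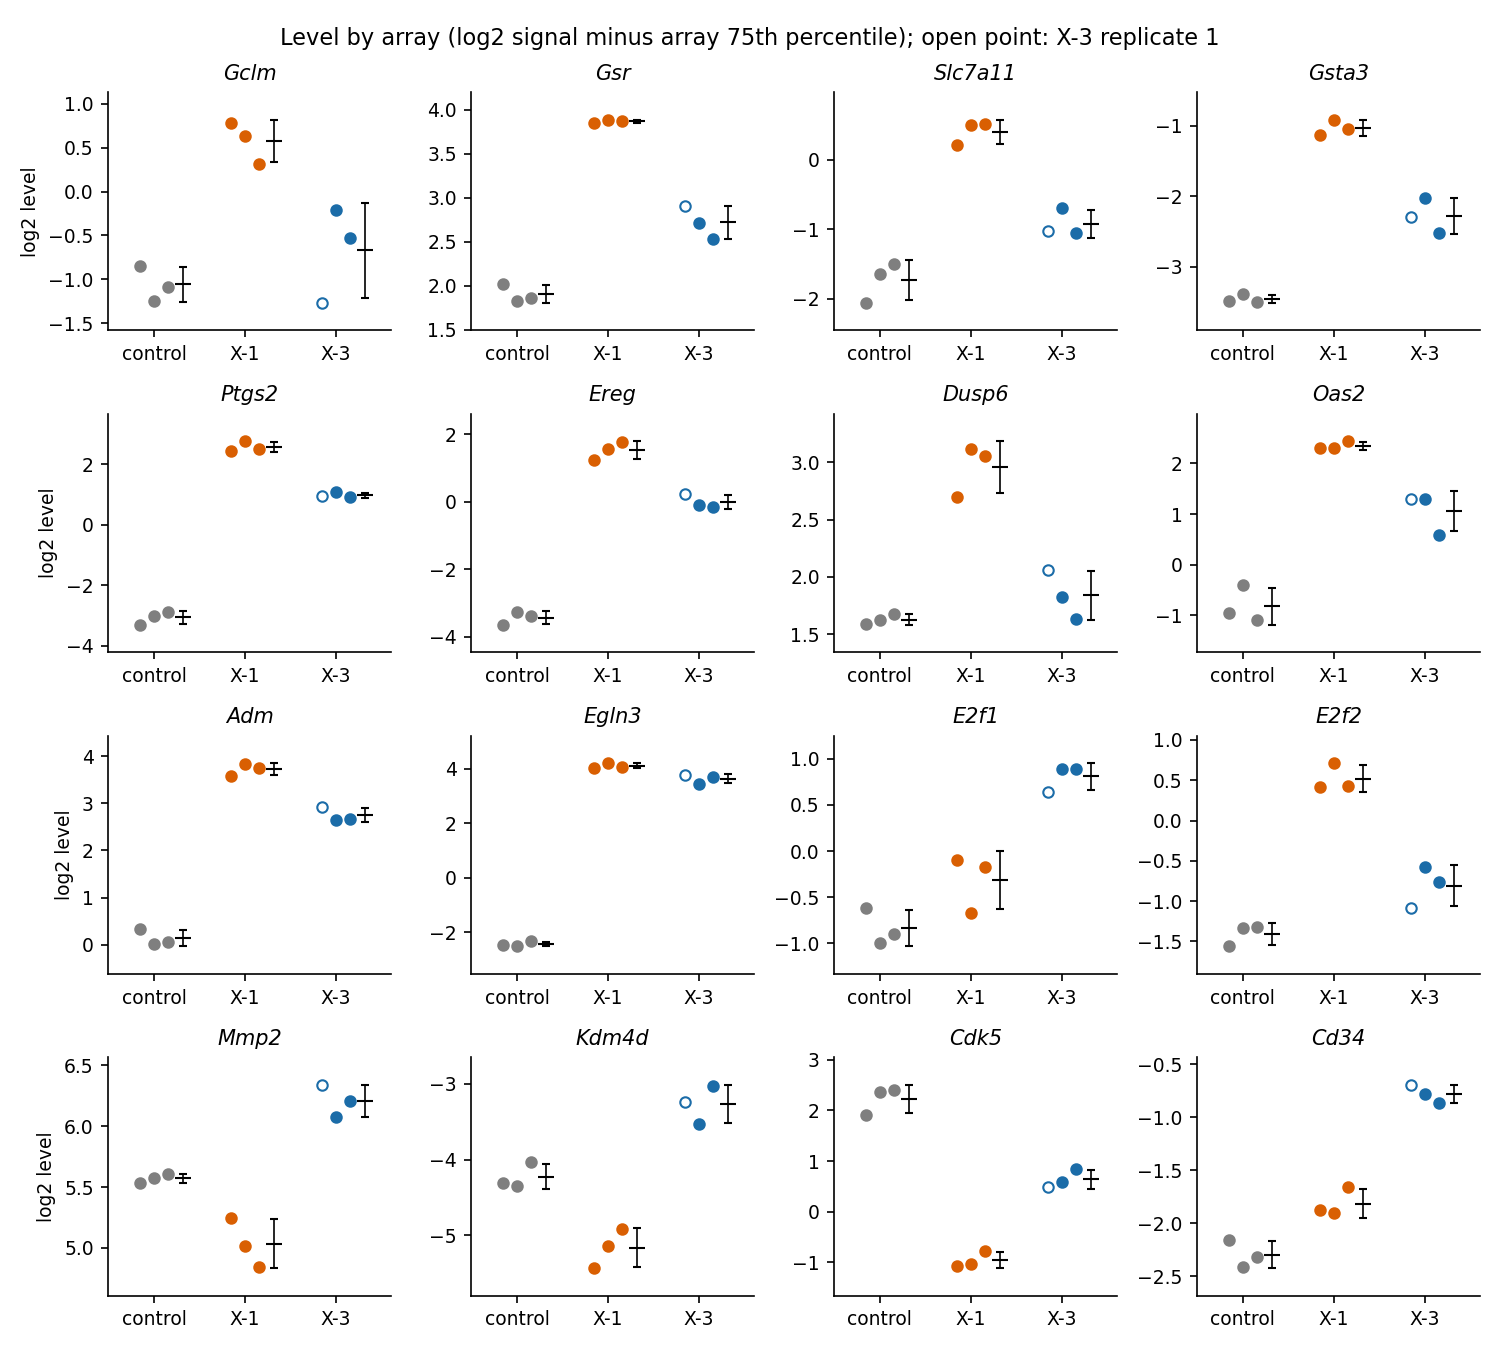
Level by array (y axis, log2 signal minus the array's 75th percentile) for 16 named genes in control, X-1 and X-3, with X-3 replicate 1 as an open point and mean ± SD of the 3 arrays beside each group. X-1 lies above X-3 in the NRF2, inflammatory and hypoxia genes and below it for E2f1, Mmp2, Kdm4d, Cdk5 and Cd34. The control lies between the compounds for Mmp2 and Kdm4d.

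The genes whose difference changed most when X-3 replicate 1 was left out show how far that array reaches. Among genes higher with X-3, Tmcc2 went from 1.35 to 1.64, Itga2b from 1.52 to 1.79, Aebp1 from 1.04 to 1.31, Btrc from 1.08 to 1.35 and Hoxc9 from 1.14 to 0.82. Hoxc9 was not above background on any X-1 array, and was at least 1.62-fold higher with X-3. Among genes lower with X-3, Slc6a6, the taurine transporter, went from −0.97 to −0.62, Ifi207 from −1.12 to −1.46, Fbrsl1 from −1.003 to −0.69 and Nr1i3 from −1.01 to −0.72. All were called in both fits, and Tmcc2 alone of these 9 genes held. Slc6a6 was at 2.30 on X-3 replicate 1 against 3.34 and 3.33 on replicates 2 and 3, and between 3.87 and 4.02 with X-1, so that array lay farthest from X-1.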

How the data were processed

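Expression was measured on 1-colour Agilent arrays, 9 in all. Per the file headers, the deposited intensity values (processed signals) were background-subtracted and spatially detrended within each array, with low values replaced by a surrogate, and the submitters' processing notes name Agilent Feature Extraction 9.1. The deposited series table holds a score per probe, quantile normalized and standardized per array as read from its values (column median −0.12), in a direction that matches the intensity values. It served only as an alternative. The sources used here give no genome build.

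Replicate spots were averaged after outlier flags and control spots were left out. The array's 75th percentile, taken over its 43379 gene spots with flagged spots included, was subtracted from the log2 intensity of 40960 probes. Of these, 24400 probes well above background on all 3 arrays of X-1 or of X-3 were kept. The brightest kept probe stood for a gene, giving 16263 genes or features, 13262 with a symbol in the RefSeq gene table. limma 3.58.1 (R 4.3.3; lmFit and eBayes) was fitted to the 9 arrays together, with the group and no other term, and had 6 residual and 2.94 prior degrees of freedom. It was checked on simulated data. Intervals are 95% intervals of that fit. The number of arrays limits the precision, and no spot was saturated (0 on every array).

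A probe not well above background on any array of a group has only a bound there: the brighter group's mean was set against the dimmer group's mean of, per array, the lowest signal among probes well above background or the probe's own, whichever was higher. Where the dimmer group was X-1 or X-3, such a probe passed the filter through the other compound alone. Its p is then not separate support for the direction. Named genes were the 15 largest called differences per direction with groups that do not overlap, up to 4 called members per list and members beyond 2-fold that were not called, a set of genes of interest, and the 5 per direction whose difference moved most without X-3 replicate 1. Other members are named where a list's called members are given in full. The members, lists and tests were chosen with earlier results of these data known. A gene list is described by its counts and median, with no test of the list. Some members of the autophagy and lysosome list are not reported here.

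Same-numbered arrays share a slide. The deviations from the group means of same-numbered X-3 and X-1 arrays correlated across genes at −0.036, −0.204 and 0.161. The X-3 mean includes X-3 replicate 1, which stood apart, so these correlations do not decide whether arrays of a slide share an effect. Alternatives were other scalings, background correction, filters, probe rules, arrays left out, array weights, an intensity trend and the replicate block. The planned normexp correction used median instead of mean spot signals, since the mean is not in all of the files used here.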

Additional observations from a re-analysis of the deposited data

Results flagged for a closer look

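For 9 named genes every X-1 array lay on one side of the control array of its slide and every X-3 array on the other. The difference between the compounds is the test, and all were called by limma. Named genes were chosen in part for large called differences, and the share of all genes with this pattern is not given here. The slide comparison describes the arrays only and is not a paired test. Higher with X-3 and above control there, below control with X-1, were Kdm4d at 1.893 (adjusted p = 0.00336), 1700001O22Rik at 1.816 (adjusted p = 0.00183), Mmp2 at 1.173 (adjusted p = 0.00336) and Mmp11 at 1.075 (adjusted p = 0.00336), as log2 differences of X-3 minus X-1. The second probe of 1700001O22Rik differed by 0.04. Lower with X-3 and below control there, above control with X-1, were Nav3 at −1.419 (adjusted p = 0.00336), Hspa1b at −1.418 (adjusted p = 0.0055), Fgf7 at −1.305 (adjusted p = 0.00826), Id4 at −1.285 (adjusted p = 0.00416) and Fbrsl1 at −1.003 (adjusted p = 0.0347). On slides 1, 2 and 3, Mmp2 was at −0.29, −0.56 and −0.76 against control with X-1 and at 0.80, 0.50 and 0.60 with X-3. Id4 was at 0.35, 0.80 and 0.88 with X-1 and at −0.46, −0.90 and −0.47 with X-3. Fbrsl1 with X-3 was at −1.50 on slide 1 and at −0.23 and −0.33 on the others. For Hspa1b and Fgf7 some X-3 arrays were close to the control (−0.11 and −0.06 for Hspa1b on slides 1 and 3, and −0.05 for Fgf7 on slide 1).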

How the results depend on the processing

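All arrays gave 1207 genes higher and 633 lower with X-3, 297 at least 2-fold and 12541 with intervals within 2-fold. Leaving out 1 of the 9 arrays gave 521 to 1757 higher, 146 to 1679 lower, 250 to 451 at least 2-fold and 11554 to 12916 within 2-fold. Counts rose to 2990 higher, 3526 lower and 615 at least 2-fold with slides 2 and 3 only, and to 3252, 3704 and 589 with array weights. They fell to 593 higher and 252 lower with the 6 treated arrays only, to 341 and 165 under median scaling, to 422 and 156 with no filter on dim probes, and to 685 higher and 108 at least 2-fold under normexp. Spike-in scaling, on replicates 2 and 3, gave 274 lower and 961 at least 2-fold, and testing every kept probe 457 at least 2-fold. The causes were not tested. With the replicate number as a block, 1236 genes were higher and 722 lower, and 1582 of the 1840 called genes remained; the block changed the call of 12 of 127 called named genes. Of these 127, Morn1 turned to −0.60 with no filter and Atg7 to −0.034 with the mean of a gene's probes, and the others kept their sign in every setting that tested them; requiring signal well above background on all 6 treated arrays tested 111 of the 127. The deposited scores gave no 2-fold or interval counts, because a score is not a log2 unit. Signal over background limits the dim genes: of the 30 genes with the largest differences, 11 were not above background on any array of the dimmer compound and 14 lost their call under normexp.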
